A study of Mus musculus with 8 samples.

Results

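The nuclear genes of oxidative phosphorylation were followed in mouse bone marrow-derived macrophages that lacked the transcription factor RBP-J or carried it. Members were taken by symbol from the table of 24421 genes: the Nduf genes of complex I and Ndufa4 (not the Ndufaf assembly factors), Sdha to Sdhd, the Uqcr genes and Cyc1, Cycs, Cox4 to Cox8 and Atp5. Of 87 rows that matched, 79 had at least 1 CPM (reads scaled to the size of the library) in at least 2 of the 8 libraries and were analysed. They were 35 genes of complex I, 4 of complex II, 9 of complex III, Cycs for cytochrome c, 13 of complex IV, 15 of complex V, and Atp5s and Atp5sl, which match by name but are not subunits. In all 8 libraries 78 of the 79 had at least 1 CPM, and the exception was Cox7a1. Subunits encoded by mitochondrial DNA were not analysed here.

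The study compared 4 groups of 2 libraries each. The knockout (KO) macrophages came from Rbpj f/f;LysMCre mice, in which Cre made from the LysM (Lyz2) locus deletes floxed Rbpj in myeloid cells, and the others from wild-type (WT) controls. The groups were KO after 2 days with TNF at 40 ng/ml, KO at day 0, WT after the same TNF treatment and WT at day 0. With no untreated group at day 2, TNF and time in culture cannot be told apart, and "with TNF" below covers both. The design states 2 independent experiments; the labels name no animals, and the p-values speak only of the spread among these libraries.

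Oxidative phosphorylation takes electrons from NADH at complex I and from succinate at complex II to ubiquinone, then through complex III, cytochrome c and complex IV to oxygen. Complexes I, III and IV pump protons out of the mitochondrial matrix as electrons pass, and complex V, the ATP synthase, makes ATP as protons flow back. Most subunits are encoded in the nucleus and imported, and macrophages that become osteoclasts are known for many mitochondria.

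The libraries held 9855859 reads (KO TNF replicate 1) to 35653203 reads (WT TNF replicate 1). Rbpj stood at 30.03 and 21.4 CPM in KO TNF and 38.9 and 31.8 CPM in KO day 0, against 226 and 178 CPM in WT TNF and 215 and 216 CPM in WT day 0, so every KO library lay below every WT library. Its log2 difference between KO and WT was -2.96 ± 0.27 with TNF and -2.60 ± 0.27 at day 0 (± is the standard error of the limma fit; limma adjusted p = 0.0735 and 0.238, and 0.00339 and 0.0264 with the replicate block described next). With the block these calls were lost without 1 and without 6 of the 8 libraries in turn. All 10 macrophage markers had at least 1 CPM in every library, which is a low bar. They summed to 5615 and 6593 CPM in KO TNF, where 12 osteoclast markers summed to 19107 and 46406 CPM. The osteoclast markers summed to 261 and 406 CPM in KO day 0 and to 6703 and 5051 CPM in WT TNF. The word macrophages below names the cells put in culture, whatever they had become with TNF. The differences between replicates 1 and 2 were correlated across the 4 groups, so where blocking on replicate number changes a call, that value is given too. The labels do not say that a replicate number marks 1 of the 2 experiments, and the blocked calls depend on that pairing.

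With TNF, the KO macrophages carried more mRNA of every complex than KO macrophages at day 0. The 79 genes took 1.67% and 1.68% of the reads in KO TNF, against 0.810% and 0.573% in KO day 0. Their summed level was 16740 and 16766 CPM in KO TNF and 8099 and 5729 CPM in KO day 0, a ratio of 2.07 in replicate 1 and 2.93 in replicate 2. The WT libraries held 10359 and 7289 CPM with TNF and 7819 and 6035 CPM at day 0, so both KO TNF libraries lay above all the others, and in WT the range with TNF overlapped the range at day 0. In RNA from whole cultures, fewer cells of a type and less RNA per cell cannot be told apart.

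**Figure D1:**
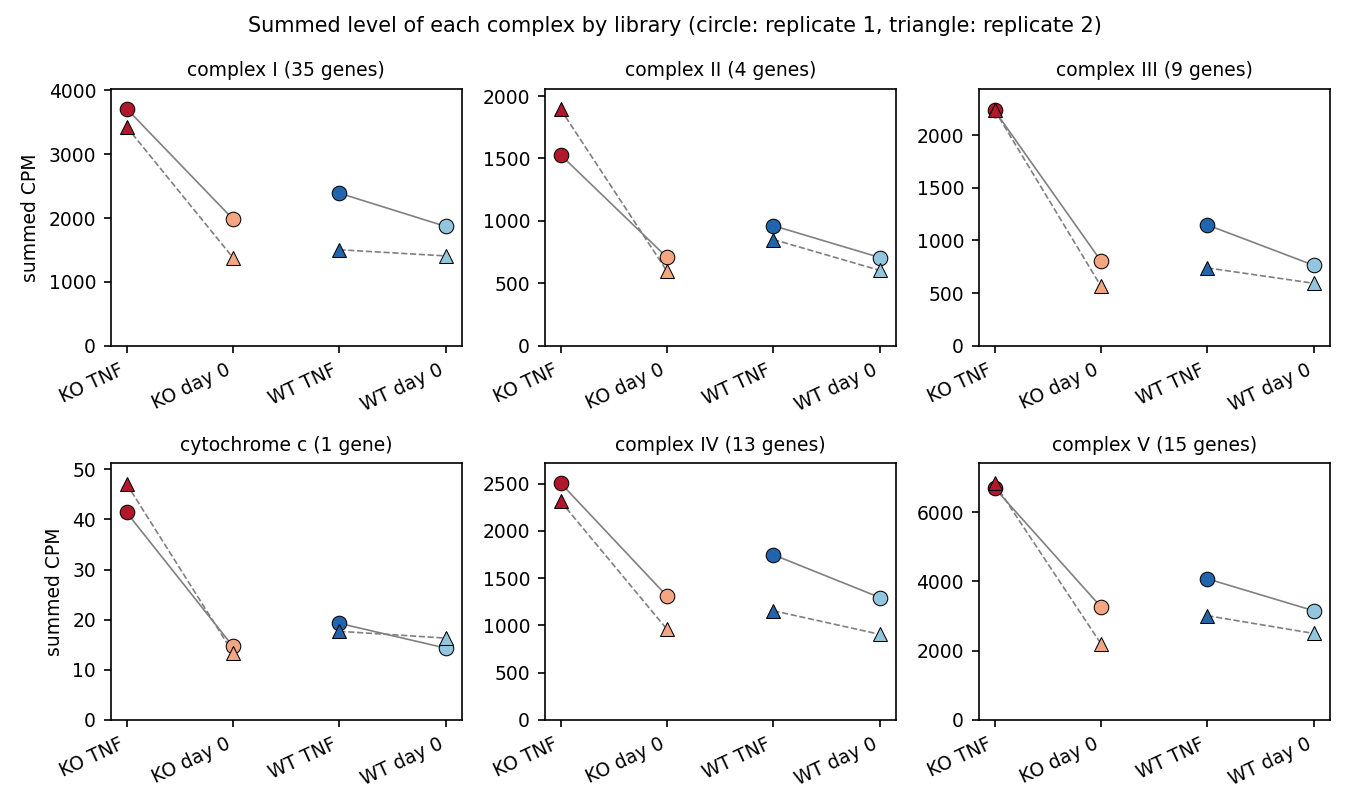
Summed CPM of the genes of each complex in each library, with circles for replicate 1 and triangles for replicate 2, and grey lines joining TNF and day 0 within a replicate number. In each of the 6 panels both KO TNF libraries sit above the other 6 libraries, for example 2234 and 2237 CPM for complex III against at most 1146 CPM elsewhere.

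All 79 log2 differences between KO TNF and KO day 0 were positive, in replicate 1 and in replicate 2 alike, with a median of 1.12, against a median of -0.10 over all 12194 genes tested. By limma on log2(CPM + 0.5), with Benjamini-Hochberg adjusted p under 0.05 as the threshold for a call, 16 of 79 rose and 0 fell. Over all genes tested 3.09% were called higher and 2.01% lower. With the replicate block 68 of 79 rose, against 12.2% of all genes called higher. Count models on the recovered reads called 13 of 79 higher by edgeR and 46 of 79 by DESeq2, against 2.57% and 8.23% of all genes, and with the block 71 and 75 of 79, against 13.1% and 17.3%. The levels of 58 of 79 did not overlap between the groups and were higher in KO TNF, against 20.4% of all genes, and 0 of 79 were lower without overlap, against 25.2%. None was called lower with the block, against 13.7% of all genes.

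The 16 calls made without the block were Ndufs1, Ndufv2, Ndufb5, Ndufb9, Ndufb10 and Ndufa10 of complex I, Sdha, Sdhb and Sdhd of complex II, Uqcrfs1, Uqcrc2 and Uqcrh of complex III, Cycs, Cox7b of complex IV, and Atp5c1 and Atp5g3 of complex V. Each of them lost its call without some libraries, in 4 to 8 of the 8 fits that left out 1 library. The count was then 0 without KO TNF replicate 2 or without either KO day 0 library, 1 without KO TNF replicate 1, 3 without either WT day 0 library and 8 without either WT TNF library. Other settings without the block also took calls from these 16. With TMM or median-ratio scaling 10 of the 16 kept the call, and Ndufv2, Sdha, Uqcrc2, Uqcrh, Cox7b and Atp5c1 lost it (limma adjusted p = 0.0539 to 0.0722 over both scalings). With edgeR 9 of the 16 kept the call, and these 6 genes and Ndufb9 lost it (edgeR adjusted p = 0.0508 to 0.0859). With no filter on low values 11 of the 16 kept it, and Ndufa10, Ndufb10, Sdha, Uqcrc2 and Atp5c1 lost it, whereas DESeq2 called all 16.

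With the block, 13 of the 16 were called in all 8 fits that left out 1 library, and Cox7b, Ndufa10 and Sdha each missed once; the count of all members called was lowest, at 24, without KO day 0 replicate 2, and was 37 without KO TNF replicate 2 and 39 without KO day 0 replicate 1.

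**Figure D2:**
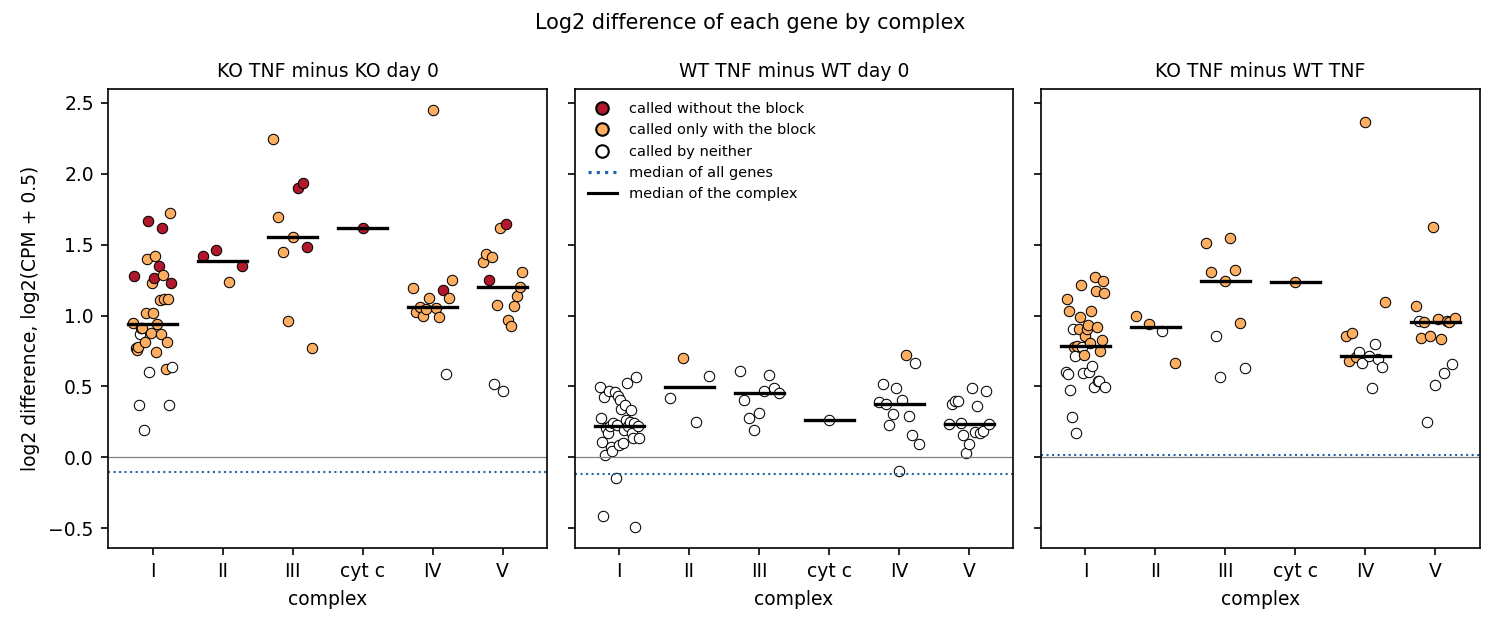
Log2 difference of each subunit gene by complex for KO TNF minus KO day 0 (left), WT TNF minus WT day 0 (middle) and KO TNF minus WT TNF (right), with the median of each complex as a bar and that of all genes as a dotted line. In the left panel every point is above 0, and the complex medians run from 0.94 (complex I) to 1.62 (cytochrome c).

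In complex I, the NADH dehydrogenase, 6 of 35 genes rose without the block and 29 of 35 with it, and the median log2 difference was 0.94 in KO TNF over KO day 0. Ndufs1, the largest iron-sulfur subunit of the electron-transferring arm, had 299 and 434 CPM in KO TNF, against 120 and 113 CPM in KO day 0. It had 158 and 140 CPM in WT TNF and 120 and 137 CPM in WT day 0. Both KO TNF libraries stood well above the other 6, and the log2 difference in the KO was 1.62 ± 0.25 (limma adjusted p = 0.0219). Ndufv2, an iron-sulfur subunit near the NADH site, had 180 and 238 CPM in KO TNF and 87.9 and 88.0 CPM in KO day 0, a log2 difference of 1.23 ± 0.23 (limma adjusted p = 0.0352). Ndufv1, which binds NADH and its flavin, had the highest log2 difference of the complex, 1.72 ± 0.53, and passed only with the block (limma adjusted p = 0.129, and 0.00365 with the block). Its levels were 201 and 161 CPM in KO TNF and 75.3 and 38.9 CPM in KO day 0, without overlap.

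The other core subunits of complex I were less uniform. Ndufs3 and Ndufs7 passed only with the block, with log2 differences of 1.12 ± 0.29 and 1.12 ± 0.95 (limma adjusted p = 0.00858 and 0.00608 with the block). Ndufs8, which holds iron-sulfur clusters of the arm that leads to ubiquinone, had 87.8 and 57.2 CPM in KO TNF and 77.0 and 38.9 CPM in KO day 0. These ranges overlapped, and its log2 difference of 0.37 ± 0.53 passed neither test (limma adjusted p = 0.808, and 0.135 with the block).

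Among the accessory subunits of complex I, Ndufb10 of the membrane arm had 128 and 121 CPM in KO TNF and 47.9 and 31.5 CPM in KO day 0. Its log2 difference was 1.67 ± 0.33 (limma adjusted p = 0.0425), and Ndufb5, Ndufb9 and Ndufa10 had 1.27 to 1.35. The 6 genes of the complex that passed with neither fit were Ndufa2, Ndufa3, Ndufa7, Ndufb11, Ndufs8 and Ndufv3. The lowest was Ndufa7, an accessory subunit of the electron-transferring arm, with 28.9 and 17.7 CPM in KO TNF and 26.8 and 14.5 CPM in KO day 0. In both groups replicate 2 was the low library, the groups overlapped, and the log2 difference was 0.19 ± 0.52 (limma adjusted p = 0.915, and 0.456 with the block).

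Complex II, succinate dehydrogenase, is shared with the citric acid cycle, and 3 of its 4 genes rose without the block and 4 of 4 with it. Sdha, the flavoprotein that oxidises succinate, had 692 and 1032 CPM in KO TNF and 327 and 304 CPM in KO day 0, a log2 difference of 1.42 ± 0.26 (limma adjusted p = 0.0338). Sdhb, the iron-sulfur subunit, had 324 and 343 CPM in KO TNF and 125 and 116 CPM in KO day 0. Both KO TNF libraries of Sdhb were above the WT TNF libraries, at 193 and 156 CPM, and these in turn were above WT day 0, at 120 and 94.2 CPM. The log2 difference of Sdhb in the KO was 1.46 ± 0.23 (limma adjusted p = 0.0229). Of the membrane anchors, Sdhd had a log2 difference of 1.35 ± 0.21 (limma adjusted p = 0.0215). Sdhc had 281 and 233 CPM in KO TNF and 155 and 75.8 CPM in KO day 0, a log2 difference of 1.24 ± 0.54 that passed only with the block (limma adjusted p = 0.276, and 0.0115 with the block).

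Complex III passes electrons from ubiquinol to cytochrome c. Its 9 genes had a median log2 difference of 1.55 in KO TNF over KO day 0, and 3 rose without the block and 9 with it. Uqcrfs1, the Rieske iron-sulfur protein, had 325 and 320 CPM in KO TNF and 98.3 and 71.3 CPM in KO day 0. In WT it had 150 and 111 CPM with TNF and 99.0 and 74.9 CPM at day 0. The KO TNF libraries agreed closely and stood far above the rest, and the log2 difference in the KO was 1.94 ± 0.28 (limma adjusted p = 0.0178). Uqcrc2, a core protein, had 413 and 757 CPM in KO TNF and 127 and 177 CPM in KO day 0, a log2 difference of 1.90 ± 0.38 (limma adjusted p = 0.0415).

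Cyc1, the cytochrome c1 of the complex, had 406 and 340 CPM in KO TNF and 113 and 53.8 CPM in KO day 0. The groups were far apart, but replicate 2 was the lower library in both, and the log2 difference of 2.24 ± 0.49 passed only with the block (limma adjusted p = 0.0558, and 0.00189 with the block). Uqcrh, the hinge protein between cytochrome c1 and cytochrome c, had a log2 difference of 1.48 ± 0.28 (limma adjusted p = 0.0346), and the core protein Uqcrc1 had 1.55 ± 0.46 (limma adjusted p = 0.118, and 0.00325 with the block). The small subunit Uqcrq was lowest at 0.77 ± 1.21 (limma adjusted p = 0.831, and 0.0186 with the block), with 154 and 34.6 CPM in KO TNF and 83.3 and 21.7 CPM in KO day 0. For Uqcrq the replicates lay further apart than the groups.

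Cycs, the somatic cytochrome c that carries electrons between complexes III and IV, had 41.4 and 47.1 CPM in KO TNF and 14.7 and 13.4 CPM in KO day 0. In WT it had 19.3 and 17.7 CPM with TNF and 14.3 and 16.3 CPM at day 0. The KO TNF libraries were clear of the other 6, and the log2 difference in the KO was 1.62 ± 0.26 (limma adjusted p = 0.0240).

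Complex IV, cytochrome c oxidase, had 1 of 13 genes called without the block and 12 of 13 with it, with a median log2 difference of 1.06 in KO TNF over KO day 0. The call without the block was Cox7b, with 156 and 215 CPM in KO TNF and 81.7 and 79.3 CPM in KO day 0 and a log2 difference of 1.18 ± 0.24 (limma adjusted p = 0.0448). The subunits Cox4i1, Cox5a, Cox5b, Cox6c and Cox8a had log2 differences of 1.03 to 1.198 and passed only with the block. Cox7c, a small membrane subunit, was lowest at 0.59 ± 0.58 and passed neither test (limma adjusted p = 0.681, and 0.0896 with the block). Cox7a1, known as the isoform of heart and skeletal muscle, had the highest log2 difference of all 79 genes at a low level: 11.7 and 11.1 CPM in KO TNF, 2.79 and 0.933 CPM in KO day 0, 4.01 and 0.678 CPM in WT TNF and 2.88 and 1.30 CPM in WT day 0. Both KO TNF libraries were far above the other 6, and the log2 difference in the KO was 2.45 ± 0.75 (limma adjusted p = 0.127, and 0.0107 with the block).

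Complex V had 2 of 15 genes called without the block and 13 of 15 with it, and a median log2 difference of 1.199 in KO TNF over KO day 0. Atp5g3, which encodes the c subunit of the proton-driven ring, had 594 and 626 CPM in KO TNF, 228 and 167 CPM in KO day 0, 315 and 305 CPM in WT TNF and 227 and 216 CPM in WT day 0. The KO TNF libraries were highest, the WT TNF libraries next and above both day 0 groups, and the log2 difference in the KO was 1.64 ± 0.24 (limma adjusted p = 0.0169, the lowest adjusted p of the 79 genes in this comparison). Atp5c1, the gamma subunit of the central stalk, had 338 and 450 CPM in KO TNF and 150 and 178 CPM in KO day 0, a log2 difference of 1.25 ± 0.25 (limma adjusted p = 0.0416).

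The catalytic beta subunit gene Atp5b had the highest level of the 79 genes in CPM, 2313 and 2423 CPM in KO TNF and 1114 and 689 CPM in KO day 0. Its log2 difference of 1.43 ± 0.34 passed only with the block (limma adjusted p = 0.0651, and 0.00817 with the block). Atp5a1 (alpha), Atp5d (delta) and Atp5o (the stator protein OSCP) likewise passed only with the block, with log2 differences of 1.31 to 1.41. Atp5e, the epsilon subunit of the stalk, stood at 107 and 105 CPM in KO TNF and 77.5 and 69.6 CPM in KO day 0, without overlap, and its 0.52 ± 0.26 passed neither test (limma adjusted p = 0.353, and 0.0640 with the block). Atp5g2, a c subunit gene, was the lowest of the complex, with 30.8 and 16.3 CPM in KO TNF and 21.8 and 11.9 CPM in KO day 0, and its 0.47 ± 0.62 passed neither test either (limma adjusted p = 0.789, and 0.135 with the block). Atp5s and Atp5sl, the non-subunits, had log2 differences of 0.41 ± 0.43 and 0.21 ± 0.41 and passed neither test (limma adjusted p = 0.712 and 0.868, and 0.252 and 0.523 with the block).

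**Figure D3:**
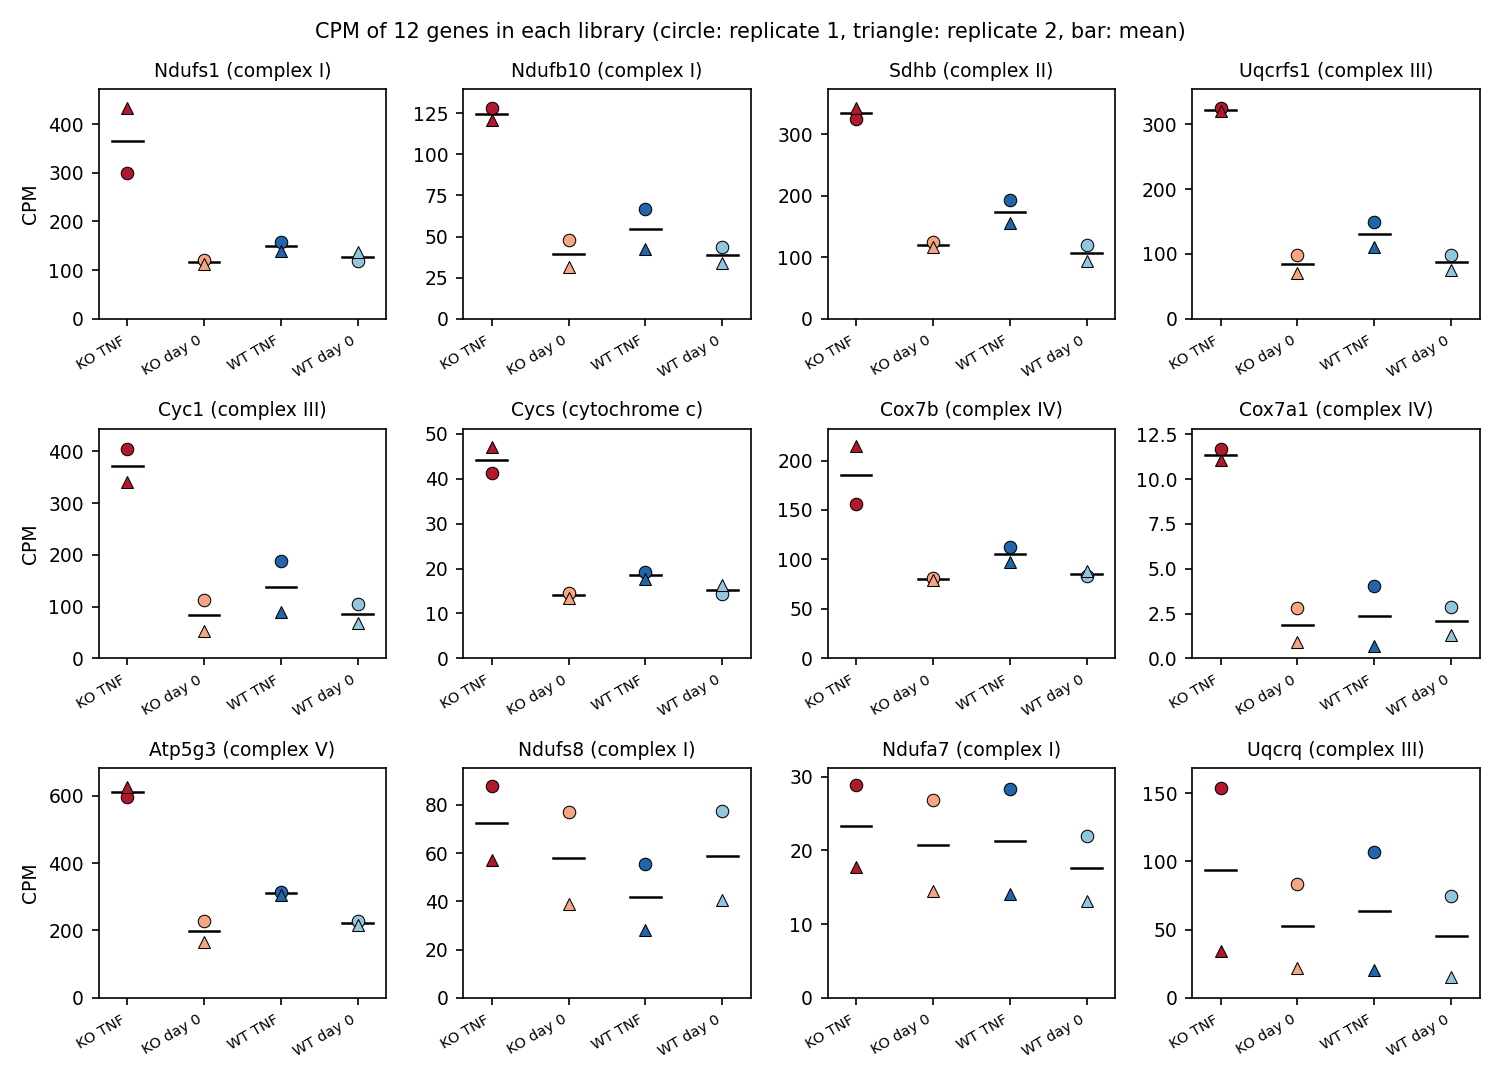
CPM of 12 subunit genes in each library, with circles for replicate 1, triangles for replicate 2 and bars for group means, the groups running KO TNF, KO day 0, WT TNF and WT day 0. In the panels from Ndufs1 to Atp5g3 both KO TNF points lie above the other 6, whereas Ndufs8, Ndufa7 and Uqcrq overlap and their replicates lie far apart (Uqcrq 154 and 34.6 CPM in KO TNF).

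In WT macrophages the same genes differed less between TNF and day 0. The median log2 difference was 0.26, against -0.12 over all genes tested, and 74 of 79 were positive. By limma 0 of 79 were called, against 0.812% of all genes called higher. In either direction 3 of 79 had an unadjusted limma p under 0.05, against 1478 of 12194 genes tested. None was called lower, against 0.369% of all genes. edgeR called 0 of 79, against 0.369%, and DESeq2 1 of 79, against 4.9%. With the replicate block edgeR called 3 and DESeq2 20 of 79, against 5.78% and 11.4%. In limma with the block 2 of 79 rose, Sdhb at 0.70 ± 0.16 and Cox7a2l, a relative of Cox7a that links complexes III and IV into supercomplexes, at 0.72 ± 0.17 (limma adjusted p = 0.0452 and 0.04995 with the block, and standard errors of that fit), against 5.54% of all genes. The call of Sdhb was lost without 6 of the 8 libraries in turn, and that of Cox7a2l without any 1 of the 8 (adjusted p with the block 0.0398 to 0.273 and 0.0579 to 0.295). Levels did not overlap and were higher in WT TNF for 27 of 79, against 14.8% of all genes, and lower for 1 of 79, Atp5s, against 22.6%.

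By complex, the WT medians were 0.22 for complex I, 0.50 for complex II, 0.45 for complex III, 0.37 for complex IV and 0.24 for complex V. Cyc1 was highest in complex III at 0.61 ± 0.49, with 187 and 89.5 CPM in WT TNF and 105 and 68.3 CPM in WT day 0, and the ranges overlapped (limma adjusted p = 0.789, and 0.141 with the block). The highest in complexes I and V were Ndufv1 at 0.57 ± 0.53 and Atp5g3 at 0.49 ± 0.24 (limma adjusted p = 0.847 and 0.512, and 0.152 and 0.130 with the block). The lowest were Ndufs8 at -0.49 ± 0.53, Sdhc at 0.25 ± 0.54, Uqcrb at 0.19 ± 0.29, Cox7a1 at -0.10 ± 0.75 and Atp5g1 at 0.03 ± 0.78, and none of these 5 passed either test (limma adjusted p = 0.893 to 0.99997, and 0.102 to 0.959 with the block). The WT median depended on single libraries: it was -0.023 without WT TNF replicate 1, 0.61 without WT TNF replicate 2, 0.49 without WT day 0 replicate 1 and 0.08 without WT day 0 replicate 2. TMM and median-ratio scaling raised the median of all genes in WT by 0.11 and 0.12, and relative to that median the members stood 0.38 higher as deposited and with TMM, and 0.39 higher with median-ratio scaling.

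After TNF, KO macrophages had more mRNA of the subunits than WT macrophages. All 79 log2 differences were positive, with a median of 0.85 against 0.02 over all genes, 0.60 in replicate 1 and 1.04 in replicate 2. In replicate 1 alone 76 of 79 were positive, the exceptions being Ndufv3, Atp5e and Atp5sl at -0.041, -0.0015 and -0.029, and in replicate 2 all 79 were. By limma 0 of 79 were called, against 0.0082% of all genes called higher. In either direction 38 of 79 had an unadjusted limma p under 0.05, against 1372 of 12194 genes tested. edgeR called 0 of 79, against 0% of all genes, and DESeq2 15 of 79, against 3.08%. With the block edgeR called 33 and DESeq2 62 of 79, against 3.79% and 10.2%. In limma with the block 46 of 79 were higher in KO TNF, against 5.53% of all genes, and levels of 57 of 79 did not overlap and were higher, against 18.8%, and 0 of 79 were lower without overlap, against 16.1%. The blocked count was 0 without KO TNF replicate 2 or without WT TNF replicate 2, 12 without either KO day 0 library, 14 without WT TNF replicate 1, 23 and 24 without WT day 0 replicates 1 and 2, and 44 without KO TNF replicate 1.

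The highest differences between KO TNF and WT TNF were those of Cox7a1 at 2.36 ± 0.75, Atp5g1 at 1.62 ± 0.78, Uqcrc2 at 1.54 ± 0.38 and Cyc1 at 1.52 ± 0.49 (limma adjusted p = 0.201 to 0.528, and 0.0180 to 0.0298 with the block). Uqcrc2 had 413 and 757 CPM in KO TNF and 175 and 209 CPM in WT TNF. Atp5g1, another c subunit gene with the same mature protein, had 88.4 and 44.3 CPM in KO TNF and 37.0 and 10.7 CPM in WT TNF. Neither gene overlapped between the groups. Highest in complexes I and II were Ndufs1 at 1.27 ± 0.25 and Sdha at 0.9997 ± 0.26 (limma adjusted p = 0.176 and 0.219, and 0.0236 and 0.0380 with the block). The lowest were Ndufa7 at 0.17 ± 0.52, Atp5sl at 0.22 ± 0.41 and Atp5e at 0.25 ± 0.26, and none of these 3 passed either test (limma adjusted p = 0.910 to 0.996, and 0.390 to 0.585 with the block).

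By complex, the blocked calls in KO TNF over WT TNF were 20 of 35 in complex I, 3 of 4 in complex II, 6 of 9 in complex III, Cycs, 6 of 13 in complex IV and 10 of 15 in complex V. The medians were 0.79, 0.92, 1.24, 1.24, 0.72 and 0.96 in the same order.

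At day 0 the genotypes did not differ detectably in these genes. The median log2 difference of KO day 0 over WT day 0 was 0.01, the same as over all genes, and 40 of 79 were positive. The single values ran from -0.33 (Atp5s) to 0.31 (Uqcrq). By limma 0 of 79 were called with or without the block, against 0% of all genes called higher. An unadjusted limma p under 0.05 was found for 0 of 79, against 164 of 12194 genes tested. edgeR and DESeq2 called 0 of 79 with or without the block. Over all genes edgeR called 0% higher, DESeq2 0.156% and DESeq2 with the block 1.14%. Levels did not overlap for 3 of 79 that were higher and 2 of 79 that were lower in the KO (Ndufa6, Ndufv2 and Cox7a2, and Sdhd and Cox7b), against 9.86% and 8.66% of all genes. The median ran from -0.23 to 0.25 when single libraries were left out, so a general shift of that size could not be seen.

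The difference between the TNF responses, KO minus WT, was positive for 77 of 79 genes, with a median of 0.84 against 0.01 over all genes, but no single gene passed. By limma 0 of 79 were called with or without the block, against 0% of all genes called. An unadjusted limma p under 0.05 was found for 21 of 79, against 689 of 12194 genes tested. edgeR called 0, with or without the block, and DESeq2 called 0 without the block, against 0.418% of all genes, and 33 of 79 with it, against 4.1%. The response was larger in the KO in both replicate numbers for 77 of 79 genes, against 36% of all genes. In 4 of 79 (5.06%) both KO pairs were higher and both WT pairs lower with TNF, against 5.22% of all genes. The exceptions to a positive difference were Ndufa7 at -0.03 ± 0.73 and Atp5sl at -0.07 ± 0.58 (limma adjusted p = 0.9997 for both, and 0.967 and 0.946 with the block). The highest values were 2.55 ± 1.06 for Cox7a1, 1.63 ± 0.70 for Cyc1 and 1.59 ± 1.10 for Atp5g1 (limma adjusted p = 0.877 to 0.9997, and 0.109 to 0.135 with the block).

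**Figure D4:**
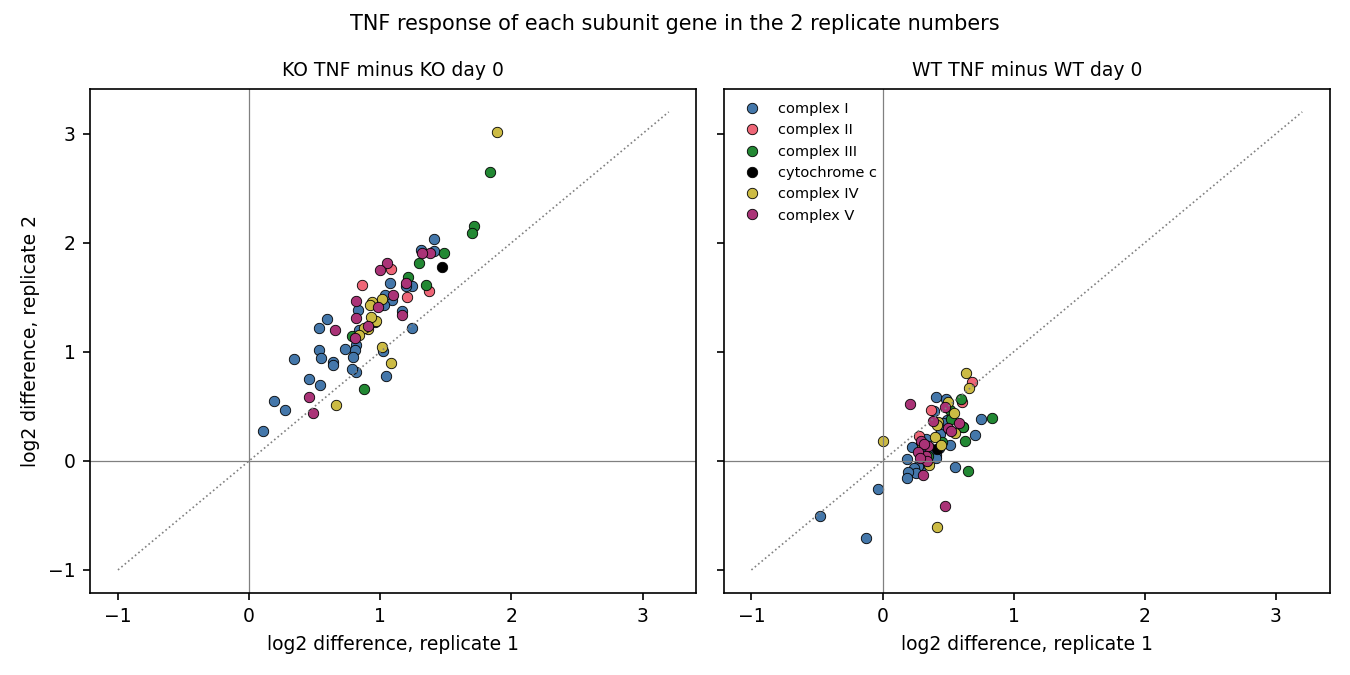
Log2 difference between TNF and day 0 of each of the 77 subunit genes in replicate 2 (vertical axis) against replicate 1 (horizontal axis), for KO (left) and WT (right), coloured by complex. In the KO all points lie above 0 on both axes and most lie above the dotted line of equal values (medians over all 79 genes, 0.93 in replicate 1 and 1.28 in replicate 2). In WT the points gather nearer to 0 (medians 0.40 and 0.16).

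Where a subunit has tissue isoforms, the levels per length were compared between genes, as CPM per kilobase of a transcript. The ubiquitous form led in each pair. Cox4i1 had 801 and 624 CPM per kilobase in KO TNF and 419 and 226 in KO day 0, whereas Cox4i2 did not pass the filter. Cox7a2, the ubiquitous Cox7a isoform, had 161 and 204 CPM per kilobase in KO TNF, and Cox7a1 had 29.7 and 28.2. At day 0 in the KO the pair stood at 85.7 and 88.2 for Cox7a2 and 7.09 and 2.37 for Cox7a1. Of the 3 c-ring genes, which encode the same mature protein, Atp5g3 made up 79.2% and 88.7% of their summed CPM per kilobase in KO TNF, 74.6% and 83.5% in KO day 0, 78.8% and 91.5% in WT TNF and 77.8% and 86.3% in WT day 0. The share was higher in replicate 2 of every group, and the groups overlapped.

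The 8 rows that matched by name did not pass the filter were all near or at 0. Cox7b2, Cox8b and Cox8c had 0 reads in every library, which allows up to 3 reads in each. Cox4i2, Cox6a2, Cox6b2 and Ndufa4l2 had 44, 126, 75 and 5 reads over all 8 libraries, and Cox6a2 was nearest to the filter with 1.38 CPM in 1 library. Just inside was Cox7a1, below 1 CPM in KO day 0 replicate 2 and WT TNF replicate 2. Ndufs5, a subunit of complex I with a near-identical pseudogene, BC002163, had 1 read in all. In GENCODE M21, 11 of 78 members had another gene with at least 95% identity over at least 50% of the transcript, Atp5l with 9 and Atp5h and Uqcrb with 3 each. Atp5c1 was the only one of the 16 called genes with such a copy, and how shared reads were counted is not given in the sources used here.

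Replicate 2 had less mRNA of most members than replicate 1 in every group, although in KO TNF their summed level was alike, at 16740 and 16766 CPM. The mean over the 4 groups of the log2 difference between replicates 2 and 1 had a median of -0.41 over the 79 genes, against -0.15 over all genes, and ran from -2.16 (Uqcrq) to 0.54 (Uqcrc2). In all 4 groups 42 of 79 were lower in replicate 2 and 11 of 79 were higher, against 4442 and 2772 of 12194 genes tested. Across 78 members this difference had a Pearson correlation of -0.72 with the GC content of the transcript, and of -0.55 across 12074 genes; genes are not independent replicates and share the same 8 libraries. The difference between KO TNF and KO day 0 had a correlation of -0.06 with GC content across the same 78 genes. The summed level of a list of stromal and endothelial markers, in replicate 1 mostly Col1a1 and Col1a2, also differed by replicate number. In replicates 1 and 2 it was 168 and 8.97 CPM in KO TNF and 147 and 19.1 CPM in KO day 0. In WT it was 134 and 31.9 CPM with TNF and 109 and 12.7 CPM at day 0. The endothelial genes of the list did not follow this sum. Pecam1 was higher in replicate 2 in every group (3.18 and 9.02 CPM in KO day 0), and Cdh5 in every group but WT TNF. The part of these markers in the replicate difference was not tested.

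**Figure D5:**
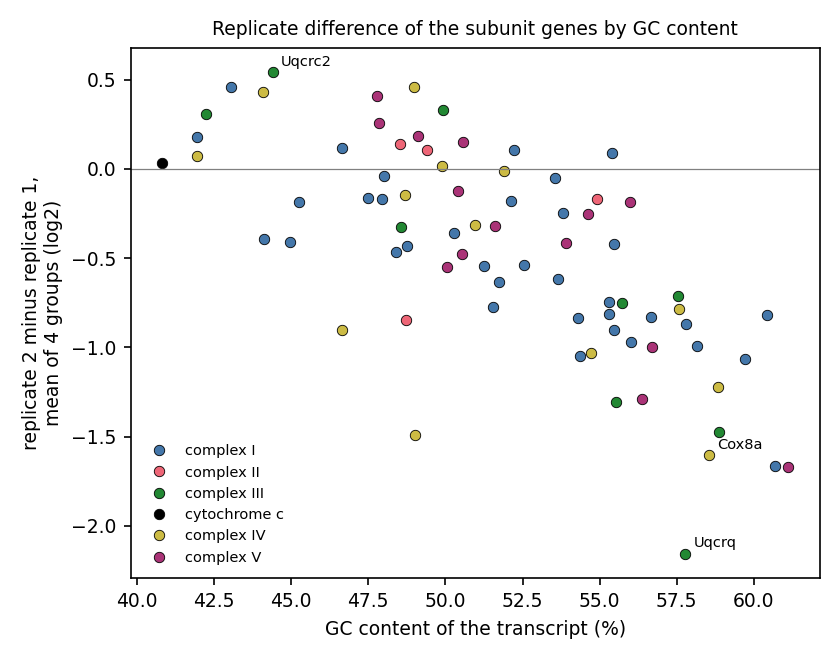
Log2 difference between replicates 2 and 1, averaged over the 4 groups (vertical axis), against the GC content of the transcript in percent (horizontal axis) for the subunit genes, coloured by complex. The points fall from left to right, with Uqcrc2 (0.54) at the top and Uqcrq (-2.16) at the bottom.

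Markers of osteoclasts were higher with TNF in the KO, as the subunit genes were. In WT the sum of these markers was also far higher with TNF, much of it Mmp9 at 4718 and 2777 CPM. Itgb3 and Tnfrsf11a overlapped between WT TNF and WT day 0, and the other markers of the list were higher in WT TNF without overlap. The summed level of the 79 genes there was 1.32 and 1.21 times that at day 0 in replicates 1 and 2. The 12 markers summed to 19107 and 46406 CPM in KO TNF and 261 and 406 CPM in KO day 0, against 6703 and 5051 CPM in WT TNF and 234 and 434 CPM in WT day 0. All 12 were higher in KO TNF than in KO day 0 and 10 of 12 were called, 7 had at least 1 CPM in every library, and none was at 0 in every library. Neutrophil markers went the other way, at 34.5 and 50.7 CPM in KO TNF and 190 and 1016 CPM in KO day 0, against 61.1 and 139 CPM in WT TNF and 147 and 841 CPM in WT day 0. Of the 10 macrophage markers 6 had lower values and 4 higher values in KO TNF than in KO day 0, and 1 of 10 was called, lower: Fcgr1, a receptor for antibodies, had 5.17 and 5.96 CPM in KO TNF and 167 and 440 CPM in KO day 0, a log2 difference of -5.49 ± 0.73 (limma adjusted p = 0.0135). In WT, Fcgr1 was also lower with TNF, at 12.5 and 43.2 CPM against 149 and 331 CPM at day 0. Adgre1, which encodes the F4/80 antigen, had 408 and 397 CPM in KO TNF and 810 and 2939 CPM in KO day 0, without overlap. Its log2 difference of -1.94 ± 0.76 was not called (limma adjusted p = 0.226). In WT, Adgre1 overlapped, at 689 and 1665 CPM with TNF and 721 and 1840 CPM at day 0. The 4 with higher values in KO TNF were Csf1r, Cd68, Spi1 and Lyz2, at 0.13 to 0.90, and none was called. The macrophage markers summed to 5615 to 9742 CPM over the 8 libraries. Both KO TNF libraries also had the fewest reads, 9855859 and 18962533. The part of these in the subunit results was not tested.

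Genes that work beside the complexes were followed in 4 lists. Of 50 assembly factors tested, 3 rose in KO TNF over KO day 0 without the block, against 3.09% of all genes, with a median log2 difference of 0.51. With the block 19 of 50 rose and 1 of 50 fell, against 12.2% and 13.7% of all genes. Ndufaf4, which helps to assemble complex I, had 56.2 and 53.9 CPM in KO TNF and 18.01 and 19.7 CPM in KO day 0, a log2 difference of 1.52 ± 0.27 (limma adjusted p = 0.0302). The other calls were Lrpprc, which stabilises mitochondrial mRNA, at 1.30 ± 0.21 and the complex III assembly factor Uqcc1 at 1.24 ± 0.25 (limma adjusted p = 0.0248 and 0.0449). The gene that fell with the block was Ndufaf7, a methyltransferase for complex I assembly, at -0.78 ± 0.31 (limma adjusted p = 0.240, and 0.0324 with the block).

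Of 9 genes tested for the exchange of ATP, ADP and phosphate and for ATP synthase inhibition, 3 rose in KO TNF over KO day 0 without the block and 7 with it, against the same shares of all genes (3.09% and 12.2%), with a median log2 difference of 1.14. Slc25a5, an ADP/ATP carrier, had 478 and 463 CPM in KO TNF and 213 and 150 CPM in KO day 0, a log2 difference of 1.39 ± 0.27 (limma adjusted p = 0.0407). Vdac1, the outer membrane channel, had 1.14 ± 0.23 (limma adjusted p = 0.0456). Ckmt1, mitochondrial creatine kinase, had 5.58 and 11.8 CPM in KO TNF and 0 in both KO day 0 libraries, at least 72.1-fold higher against a floor of 3 reads in each library (limma adjusted p = 0.00875). With Ckmt1 at that bound the median of the list was also 1.14.

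Of 22 genes tested that feed electrons to ubiquinone by other routes, make ubiquinone or uncouple, 2 rose in KO TNF over KO day 0 without the block and 11 with it, against 3.09% and 12.2% of all genes, with a median log2 difference of 0.78. Adck3 (Coq8a), a kinase-like protein of ubiquinone synthesis, had 84.8 and 293 CPM in KO TNF, 2.79 and 6.49 CPM in KO day 0, 33.9 and 32.7 CPM in WT TNF and 2.95 and 2.26 CPM in WT day 0. It was highest in KO TNF, and the log2 difference in the KO was 5.05 ± 0.64 (limma adjusted p = 0.0114). Gpd2, the mitochondrial glycerol phosphate dehydrogenase, had its highest levels in WT TNF instead: 109 and 110 CPM in KO TNF, 59.8 and 55.1 CPM in KO day 0, 187 and 258 CPM in WT TNF and 55.4 and 54.5 CPM in WT day 0. Its log2 difference in WT was 1.99 ± 0.24 (limma adjusted p = 0.0230), and between KO TNF and WT TNF it was -0.998 ± 0.24 (limma adjusted p = 0.194, and 0.0279 with the block, a call lost without 5 of the 8 libraries in turn).

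Of 12 regulators of mitochondrial genes tested, 1 rose in KO TNF over KO day 0 without the block and 2 with it, and the median log2 difference was 0.03. With 3.09% and 12.2% of all genes called, these counts are near the background. Ppargc1b, a coactivator of mitochondrial gene expression, had 111 and 64.6 CPM in KO TNF and 5.83 and 1.64 CPM in KO day 0, against 30.6 and 14.5 CPM in WT TNF and 6.12 and 2.08 CPM in WT day 0. The log2 difference was 4.53 ± 0.73 in the KO (limma adjusted p = 0.0233) and 2.39 ± 0.73 in WT (limma adjusted p = 0.231, and 0.00400 with the block). Esrra, the nuclear receptor ERR alpha that works with the Ppargc1b protein, had 128 and 41.1 CPM in KO TNF and 61.4 and 16.5 CPM in KO day 0. In WT it had 85.4 and 28.6 CPM with TNF and 60.4 and 19.8 CPM at day 0. The ranges overlapped in both genotypes, and the log2 difference in the KO was 1.17 ± 0.94 (limma adjusted p = 0.590, and 0.00393 with the block). Nrf1 and Tfam, a factor of many subunit promoters and the packaging protein of mitochondrial DNA, had -0.36 ± 0.35 and 0.17 ± 0.24 and passed neither test (limma adjusted p = 0.675 and 0.808, and 0.195 and 0.462 with the block). Without 1 library, the calls of these lists made without the block were lost in 2 to 8 of 8 fits, and with the block only those of Uqcc1 and Vdac1 were lost, without KO day 0 replicate 2.

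The promoters of the members were read because so many moved together. RefSeq windows of 250 bases before to 50 after the start (GRCm38.p6) were held for 67 of the 79. The letters GCGC, any base and TGCGC, bound by NRF1, were found on either strand in 16 of 67 members (23.9%). Of 17492 protein-coding genes 7.17% held them. Those genes were not limited to ones past the CPM filter, so the shares were not matched for expression. AAGATGGC, bound by YY1, was in 16.4% of members and 3.57% of all, TGACGTCA, bound by CREB, in 7.46% and 2.54%, and AAGGTCA, bound by ERR receptors, in 10.4% and 4.73%. CCGGAAGT, bound by ETS factors, was in 7.46% of members and 5.69% of all, and GTGGGAA, bound by RBP-J, in 5.97% and 6.96%. All were searched on both strands, TGACGTCA reads the same on each, and a match is no evidence of binding. Of the 13 genes called without the block that had a window, 4 held the NRF1 letters, 3 those of CREB, 2 those of ERR receptors, 1 those of ETS factors and 0 those of YY1 or RBP-J. Among those missing from the table were Atp5a1, Cox4i1, Cox6c, Cyc1, Ndufa2, Ndufb9, Ndufs1, Sdhc, Uqcrb, Uqcrc2 and Uqcrq.

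Of the windows held, 4 called genes and Ndufs8, which passed neither test, are printed 5′ to 3′ on the gene's strand, which is the minus strand for all 5, up to the start (for Sdha and Uqcrh, up to the earlier start in GENCODE M21), with matches to the letters above in capitals. They were picked as examples, and show different letters among genes that rose and a stretch with none. Among called genes with a window, Sdhb, Ndufb5, Ndufb10, Ndufv2 and Cox7b held none of the letters searched. Of the genes that passed neither test, Atp5g2, Atp5e, Ndufa3, Cox7c and Atp5sl held some, and Ndufa7, Ndufb11, Ndufv3 and Atp5s, like Ndufs8, held none. Sdha (chr13:74350281-74350490) holds NRF1 letters in reverse, Cycs (chr6:50566570-50566819) those of CREB, Uqcrh (chr4:116075072-116075320) those of ETS factors in reverse, Atp5g3 (chr2:73911327-73911576) those of ERR receptors in reverse, and Ndufs8 (chr19:3912775-3913024) none in the bases shown. Further NRF1 matches in the windows of Sdha and Atp5g3 lie outside the bases printed.
Sdha: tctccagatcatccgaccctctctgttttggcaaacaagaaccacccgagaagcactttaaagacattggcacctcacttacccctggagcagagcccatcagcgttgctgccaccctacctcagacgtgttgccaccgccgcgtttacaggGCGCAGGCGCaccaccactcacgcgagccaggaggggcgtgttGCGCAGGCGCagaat
Cycs: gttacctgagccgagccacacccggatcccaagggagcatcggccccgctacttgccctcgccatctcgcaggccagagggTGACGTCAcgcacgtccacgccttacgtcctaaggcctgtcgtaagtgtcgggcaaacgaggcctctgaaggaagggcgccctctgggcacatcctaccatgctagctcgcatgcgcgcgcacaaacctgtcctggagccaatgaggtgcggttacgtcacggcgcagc
Uqcrh: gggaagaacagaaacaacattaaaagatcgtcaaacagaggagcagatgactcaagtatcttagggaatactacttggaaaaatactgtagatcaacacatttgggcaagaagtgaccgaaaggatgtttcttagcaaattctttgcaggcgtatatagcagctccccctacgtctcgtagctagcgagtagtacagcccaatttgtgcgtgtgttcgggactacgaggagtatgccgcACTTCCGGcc
Atp5g3: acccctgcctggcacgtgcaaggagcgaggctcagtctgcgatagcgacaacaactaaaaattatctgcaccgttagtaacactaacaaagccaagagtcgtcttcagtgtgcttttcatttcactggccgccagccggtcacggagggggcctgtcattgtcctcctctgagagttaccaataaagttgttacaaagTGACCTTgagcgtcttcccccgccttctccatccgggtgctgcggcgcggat
Ndufs8: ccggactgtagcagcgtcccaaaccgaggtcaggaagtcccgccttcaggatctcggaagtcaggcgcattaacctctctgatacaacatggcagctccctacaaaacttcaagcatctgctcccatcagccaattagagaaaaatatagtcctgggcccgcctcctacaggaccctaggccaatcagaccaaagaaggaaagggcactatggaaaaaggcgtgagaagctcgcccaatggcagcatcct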

How the data were processed

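RNA-seq was measured in 8 libraries. The deposited values were CPM per gene, made by the authors with fastp, HISAT2, HTSeq and edgeR on mm10 from poly-A libraries, per the submitters' processing notes and the labels' protocols; annotation and counting settings are not given in the sources used here. Each CPM value was a whole number of reads within 0.01, and these recovered reads served the count models only. Among the symbols, 27 had turned into dates and 4 were repeated.

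The 12194 genes that reached 1 CPM in 2 or more libraries were tested on log2(CPM + 0.5) with limma 3.58.1 (R 4.3.3; group model, trended variance, 4 groups in 1 fit), with Benjamini-Hochberg adjustment over all genes. The fit was also run on simulated reads with the same replicate effect in all 4 groups, which cannot test the pairing in these data. Alternatives were the replicate block, other scaling, pseudocounts and filters, edgeR 4.0.16, DESeq2 1.42.0, and leaving out each library; block with scaling was added after the data were seen. The design has 2 independent experiments, but the labels do not say that a replicate number marks 1 of them; the pairing rests on the data, where the 6 correlations between groups of the replicate differences ran from 0.577 to 0.805. Principal component 2 (32.9% of variance) separated the numbers.

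Members and lists were chosen with earlier results of these data known. Named genes were core subunits, isoform pairs, the highest and lowest of a complex, called members, members below the filter, and up to 4 called genes per other list; Ndufaf7, Esrra, Nrf1 and Tfam were named after their values were seen. The values of 1 core subunit are not reported here. Depth sets the precision of low genes, and the 3-read floors cover counting error only.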

Additional observations from a re-analysis of the deposited data

Results flagged for a closer look

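In 4 of 79 genes (5.06%) both KO pairs of libraries were higher with TNF and both WT pairs were lower, against 5.22% of all genes tested, so the count is at the background and says nothing particular about these genes. The log2 difference between the responses, KO minus WT, was 1.17 for Ndufa12, 0.86 for Ndufs8 and 0.75 for Ndufb11, all of complex I, and 0.86 for Atp5s, which is not a subunit. Ndufa12, an accessory subunit near the NADH-oxidising arm, changed by 0.64 and 0.88 in the KO pairs and by -0.12 and -0.71 in the WT pairs. Ndufs8 changed by 0.19 and 0.55 in the KO pairs and by -0.47 and -0.51 in the WT pairs. Ndufb11, of the membrane arm, changed by 0.46 and 0.75 in the KO pairs and by -0.03 and -0.26 in the WT pairs. Atp5s changed by 0.36 and 0.45 in the KO pairs and by -0.45 and -0.44 in the WT pairs. The test of the difference itself was not passed by any of the 4 (limma adjusted p = 0.9997 for each, and 0.135 to 0.260 with the replicate block).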

How the results depend on the processing

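No value changed sign with a call under any alternative run. For KO TNF over KO day 0, 16 calls became 68 with the replicate block, 71 with the block and TMM or median-ratio scaling, 71 by edgeR with the block, 46 by DESeq2, 75 by DESeq2 with the block and 0 when only the 4 libraries of the comparison were fitted, where fewer samples estimate the spread. Leaving out 1 library gave 0 to 8 calls, and with the block 24 to 68 (37, 39, 65 and 67 among them).

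For WT TNF over WT day 0, 0 calls became 2 with the block, 5 and 6 with the block and TMM or median-ratio scaling, 3 by edgeR with the block, 1 by DESeq2 and 20 by DESeq2 with the block. Leaving out 1 library with the block gave 0 to 2 (1 without KO TNF replicate 2), and the median then ran from -0.023 to 0.61 without the block and reached 0.44 with it.

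For KO TNF over WT TNF, 0 calls became 46 with the block, 39 and 41 with the block and TMM or median-ratio scaling, 33 by edgeR with the block, 15 by DESeq2 and 62 by DESeq2 with the block. Leaving out 1 library with the block gave 0 to 44 (12, 14, 23 and 24 among them). The median of KO day 0 over WT day 0 ran from -0.23 to 0.25 without 1 library and was -0.058 with the block without KO day 0 replicate 1. The difference between responses had 33 calls by DESeq2 with the block and 7 by limma with the block without KO TNF replicate 1. For the other changes the cause was not tested.

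With 2 libraries a group, a group left with 1 library is assumed to vary like the others. Without the block, other scaling, pseudocounts and filters gave 11 to 19 calls for KO TNF over KO day 0 and 0 for the other comparisons; of the 16 called as deposited, 10 kept the call with either scaling, 11 with no filter and 9 with edgeR. The 9855859 reads of KO TNF replicate 1 limit the precision of low genes in that library. The low gene Cox7a1 had its lowest levels in KO day 0 replicate 2 and WT TNF replicate 2, which held more reads.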
